A study of Homo sapiens with 6 samples.

Results

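The genes described here are 30 genes of the endoplasmic reticulum (ER) stress response and of the ATF4 amino acid response, including the enzymes of serine synthesis. They were taken by gene symbol from the 27234 rows of a table of exon counts, and all 30 were found. They were split by role into 14 ER chaperones and folding factors, with the transcription factor XBP1, and 16 genes of ATF4 and its amino acid and stress targets. RNA had been sequenced from A673, an established Ewing sarcoma cell line whose driver is EWS-FLI1, a chimeric transcription factor made of the EWSR1 N-terminus and the FLI1 ETS domain. All cells were grown in serum-containing medium and transfected for 48 h, either with an siRNA specific to FLI1 (siFLI1, 3 libraries) or with a scrambled siRNA (siControl, 3 libraries). Both groups therefore carry the fusion, and the design has no untransfected cells and no cells in which ER stress was induced.

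Proteins that enter the secretory pathway fold in the ER with the help of chaperones and disulfide isomerases. When unfolded proteins build up, the sensors ATF6 and IRE1 raise chaperone genes, the latter by splicing XBP1 mRNA, and the kinase PERK phosphorylates the initiation factor eIF2. Phosphorylated eIF2 lowers general translation but favours that of ATF4, which several other kinases can start as well, among them GCN2 on amino acid shortage. ATF4 then raises genes of amino acid uptake, of asparagine and serine synthesis and of mitochondrial one-carbon metabolism. ATF4 and XBP1 are thus controlled largely after transcription, which counts of RNA do not show. PHGDH and other enzymes of serine synthesis have been described as highly expressed in Ewing sarcoma.

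Counts assigned to genes ran from 1248395 to 1893606 in 5 libraries and came to 417145 in siFLI1 replicate 3. In that library they were 10.1% of the total in the column header, against 41.2% to 61% in the others, and it stood apart on the first principal component. On the second component siFLI1 replicates 1 and 2 were at 37.4 and 39.5. There siFLI1 replicate 3, at −18.6, lay among the siControl libraries, which ran from −28.3 to −14.4. siControl replicate 1 stood apart on the third component. FLI1, whose 3' end the fusion transcript shares, had 19.01, 42.5 and 24.1 CPM (counts scaled to library size, with factors from the trimmed mean of M values, TMM) in siFLI1 replicates 1, 2 and 3, and 63.0, 69.1 and 62.4 CPM in siControl replicates 1, 2 and 3, with no overlap; the edgeR estimate on the log2 scale was −1.16 with an SE of 0.36 and an adjusted p of 0.17. The level of FLI1 in siFLI1 replicate 3 came from 9 counts. Of 7 Ewing sarcoma markers, 6 had more than 10 counts in all. The 7 summed to 1039 to 1786 CPM in siFLI1 and 2296 to 3602 CPM in siControl. By group means CCND1 weighed most in this sum, with 894 CPM in siFLI1 and 2041 CPM in siControl. Leukocyte markers summed to at most 42.8 CPM, in siFLI1 replicate 3, where all of it was PTPRC (16 counts). PTPRC had 6 counts in siControl replicate 3 and 0 in the other libraries, and CD3E had 0 throughout. Endothelial markers summed to at most 9.4 CPM and epithelial markers to at most 8.03 CPM. Of the latter, EPCAM reached 7.69 CPM in siControl replicate 3 and CDH1 5.355 CPM in siFLI1 replicate 3, with KRT5 and KRT19 at 0. The part of these markers in the results was not tested.

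The medians of the ER chaperones and of the ATF4 genes lay on different sides of 0, but no single member passed the test. Of the 14 ER members 8 had a positive and 6 a negative log2 fold change, and the median was 0.13. Of the 14 tested ATF4 members 13 lay below 0, their median was −0.43, and the 1 exception was DDIT4, which restrains mTORC1. Over all 9420 tested genes, 49.6% had a negative value and the median was 0.01. In edgeR's quasi-likelihood test 0 of the 28 tested members reached an adjusted p of 0.05, where 1.45% of all tested genes did (1.34% higher and 0.117% lower in siFLI1). The smallest adjusted p was 0.199, for PSAT1. Likewise 0 were called by DESeq2, which called 2.3% of all tested genes, and by limma-voom, which called 1.55%. At an unadjusted p below 0.05, 2 members were higher in siFLI1 (CRELD2 and DDIT4) and 3 lower (TRIB3, PSAT1 and MTHFD2), where 6.62% of all tested genes were higher and 4.13% lower. CHAC1 and VLDLR had too few counts to be tested.

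The split held under each other scaling for the ATF4 genes, with 13 of 14 negative under DESeq2 size factors, upper quartile scaling and total counts. For the ER members it did not, since 7 of 14 were negative under total counts and their median was −0.0046. That scaling moved the median of all tested genes to −0.12. The size of the ATF4 median rested in part on siFLI1 replicate 3, without which it was −0.24, with 13 of 14 still negative. That library was the lowest of the siFLI1 libraries in 11 of the 14 ATF4 members. The ER count moved with siControl replicate 1, which was the highest siControl library in 10 of the 14 ER members. Without it, 3 of the 14 were negative. Without both of these libraries 3 of 14 ER members and 12 of 14 ATF4 members were negative, and their medians were 0.28 and −0.42. The part of depth and library quality in these values was not tested. In bulk RNA, less RNA in every cell and fewer cells that hold it cannot be told apart.

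**Figure D1:**
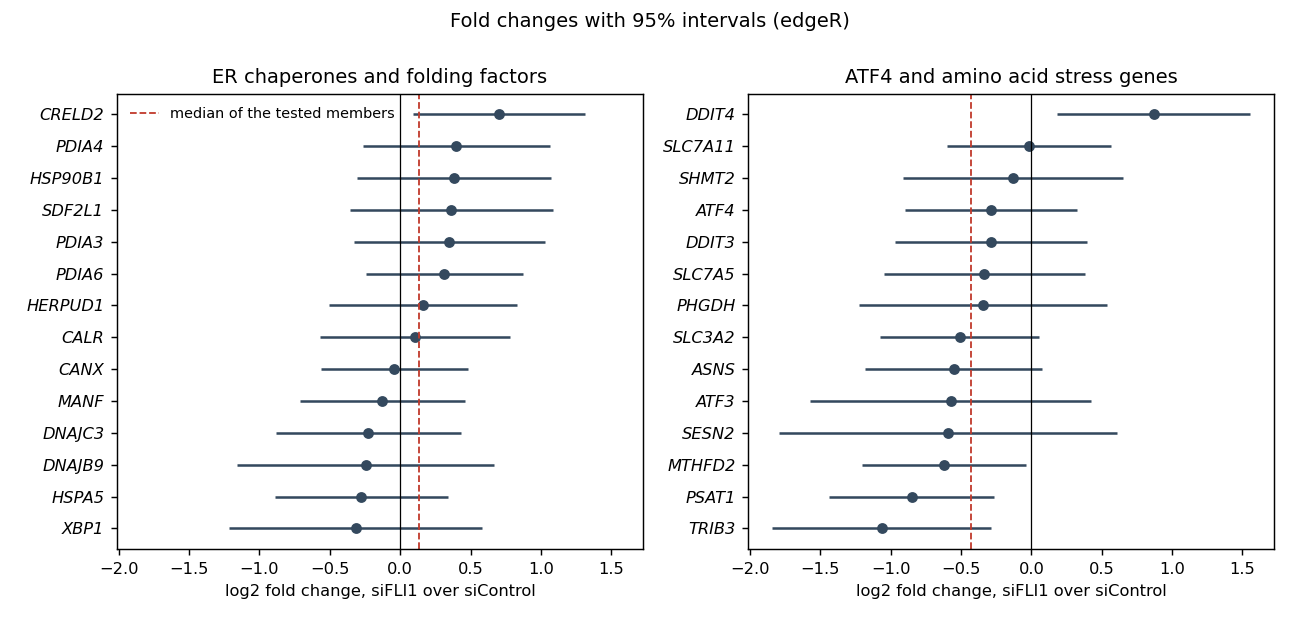
Log2 fold change of siFLI1 over siControl for the 28 tested members, with 95% intervals from edgeR (lines) and the median of each group (dashed red line). The ER median is 0.13 and the ATF4 median −0.43. The intervals of CRELD2 and DDIT4 lie wholly above 0 and those of TRIB3, PSAT1 and MTHFD2 wholly below it, before adjustment over all genes.

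The intervals show how large a difference these libraries could have missed. Of the 28 tested members, 11 had a 95% interval that lay within 2-fold in both directions. For 11 the interval reached a 2-fold lower level in siFLI1, and for 6 a 2-fold higher level. For CANX, the narrowest, it ran from −0.56 to 0.48 on the log2 scale, and for SESN2, the widest, from −1.79 to 0.61. These intervals are for each gene alone, without adjustment.

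Several ER chaperones share a promoter element. The ER stress response element (ERSE), to which ATF6 and XBP1 are known to bind together with NF-Y, is the letters CCAAT, a spacer of 9 bases and the letters CCACG. It was searched on both strands in RefSeq windows (GRCh38.p14) from 250 bases before to 50 after a start. Members had up to 4 such windows, and a match in any of them was counted. The PDIA6 match lay far from the start of its counted row, at 10837977. Windows were found for 27 members. The ERSE was in 7 of 13 ER members, in 0 of 14 ATF4 members and in 0.0916% of 27305 genes with a window. The matches are shown because this element is the known common control of the chaperone genes, with CCAAT and CCACG in capitals and each sequence read 5′ to 3′ on the strand of the match.
HSPA5 (chr9:125241386-125241414, minus strand): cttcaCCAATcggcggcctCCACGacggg
HSP90B1, first match (chr12:103930211-103930239, plus strand): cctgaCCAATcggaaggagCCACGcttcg
HSP90B1, second match (chr12:103930316-103930344, minus strand): acccaCCAATcgcgccgcaCCACGcaccc
CALR (chr19:12938379-12938407, minus strand): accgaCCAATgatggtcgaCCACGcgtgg
CANX (chr5:179698773-179698801, plus strand): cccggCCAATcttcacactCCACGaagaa
PDIA6 (chr2:10812848-10812876, minus strand): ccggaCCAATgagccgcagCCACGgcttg
CRELD2 (chr22:49918549-49918577, minus strand): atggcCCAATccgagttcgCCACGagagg
XBP1 (chr22:28800598-28800626, minus strand): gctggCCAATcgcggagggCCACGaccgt

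A shorter form, ERSE-II, is ATTGG, a spacer of 1 base and CCACG, and stood in 2 other ER members. It was in 0.0696% of all genes with a window.
HERPUD1 (chr16:56932020-56932040, plus strand): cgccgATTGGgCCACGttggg
SDF2L1 (chr22:21642109-21642129, minus strand): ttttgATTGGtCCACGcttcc
The element TGACGTGG, at which XBP1 can bind alone, was in 0 members and in 0.927% of all genes with a window. No match says only that these letters were not in the window. Across the table, 13 of the 25 genes with an ERSE were tested, and 0 of them were called in edgeR. The 13 include the 7 ER members with an ERSE. Of these 13, CRELD2 alone had an unadjusted p below 0.05. Their log2 fold changes ran from −0.32 to 1.04 with a median of 0.10. Among the ERSE genes that are not members, SERP1, which stabilises ER membrane proteins, was at 0.04 ± 0.28 (SE) and FICD, which modifies the chaperone BiP, at 0.36 ± 0.60.

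None of the 4 general chaperones passed the test in either direction. HSPA5 encodes BiP, the HSP70 of the ER that also holds the stress sensors inactive (chromosome 9, 125234848 to 125241387, minus strand, hg38). It had 657, 629 and 431 CPM in the siFLI1 replicates 1, 2 and 3 and 888, 562 and 637 CPM in siControl replicates 1, 2 and 3. The groups overlapped, with the highest level in siControl replicate 1 and the lowest in siFLI1 replicate 3. Its log2 fold change was −0.28 ± 0.29 (SE; 95% interval −0.89 to 0.34, edgeR adjusted p = 0.817), and without siFLI1 replicate 3 and siControl replicate 1 it turned to 0.092. Without siControl replicate 1 alone it was −0.094. HSP90B1, the HSP90 of the ER known as GRP94, was at 3045, 3872 and 4177 CPM in siFLI1 and 3359, 2748 and 2420 CPM in siControl. Only siControl replicate 1 lay within the siFLI1 range, and the log2 fold change was 0.38 ± 0.32 (adjusted p = 0.755). The lectin chaperones CALR and CANX, which hold glycoproteins during folding, were at 0.10 ± 0.32 and −0.04 ± 0.24. CALR turned to −0.062 under total counts, to −0.058 without siFLI1 replicate 1 and to −0.032 without siControl replicate 2. CANX turned to 0.031 without siFLI1 replicate 1 and to 0.030 without siControl replicate 1.

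All 3 disulfide isomerases among the members had positive log2 fold changes of 0.31 to 0.40. PDIA4, which forms and rearranges disulfide bonds, was at 1380, 1922 and 1208 CPM in siFLI1 and 1094, 1438 and 891 CPM in siControl, so that the groups overlapped through siControl replicate 2. Its log2 fold change was 0.40 ± 0.31 (SE; edgeR adjusted p = 0.722), and 0.18 without siFLI1 replicate 2. PDIA6, which can also attenuate the sensor IRE1, was at 0.31 ± 0.26 and PDIA3, which acts on glycoproteins held by CALR and CANX, at 0.35 ± 0.32. The PDIA6 and PDIA3 rows overlap ATP6V1C2 and ELL3 on the other strand, with at most 85 counts in a group, and a pseudogene of PDIA3 had 20 counts.

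The smaller folding factors went both ways. CRELD2, a secreted ER protein with isomerase activity (chromosome 22, 49918630 to 49927540, plus strand), had 190, 211 and 145 CPM in the siFLI1 replicates 1, 2 and 3 and 82.9, 153 and 102 CPM in siControl replicates 1, 2 and 3. Its groups overlapped because siControl replicate 2 lay above siFLI1 replicate 3. Group means were 182 ± 33.7 and 113 ± 36.2 CPM (SD, n = 3) and gave a difference of 0.70 ± 0.29 in log2 (SE; edgeR adjusted p = 0.385), and it was positive under each alternative, from 0.50 to 0.99. SDF2L1, a partner of BiP and its J-domain proteins, was at 704 to 916 CPM in siFLI1. In siControl it was at 756 and 866 CPM in replicates 2 and 3 but at 338 CPM in replicate 1, which was the highest siControl library for most chaperones. Its log2 fold change was 0.36 ± 0.34, and 0.016 without that library. MANF, a secreted factor that protects stressed cells, was at −0.13 ± 0.27, and it turned to 0.0051 without siFLI1 replicate 3 and to 0.011 without siControl replicate 1.

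The J-domain proteins, the degradation factor and XBP1 showed no common direction. DNAJB9, a co-chaperone of BiP that is known to be induced by XBP1, was at 24.6, 24.6 and 64.3 CPM in siFLI1, where replicate 3 alone was high. It was at 54.9, 32.8 and 34.2 CPM in siControl, and the log2 fold change of −0.24 ± 0.43 (SE) turned to at most 0.0056 in the fits without siFLI1 replicate 1, siFLI1 replicate 2 or siControl replicate 1. DNAJC3, which binds unfolded proteins for BiP, was at −0.23 ± 0.31. HERPUD1, which helps to bring proteins to ER-associated degradation, was at 0.16 ± 0.31 and turned to −0.083 without siFLI1 replicate 3 and to −0.0057 without siControl replicate 1. XBP1 was at 69.3, 55.1 and 18.7 CPM in siFLI1 and at 94.8, 37.5 and 58.1 CPM in siControl. The level in siFLI1 replicate 3 came from 7 counts, and the log2 fold change of −0.32 ± 0.42 turned to 0.071 without siControl replicate 1. The adjusted p of these 4 genes was 0.864 to 0.904 (edgeR), and counts over exons do not tell spliced from unspliced XBP1.

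**Figure D2:**
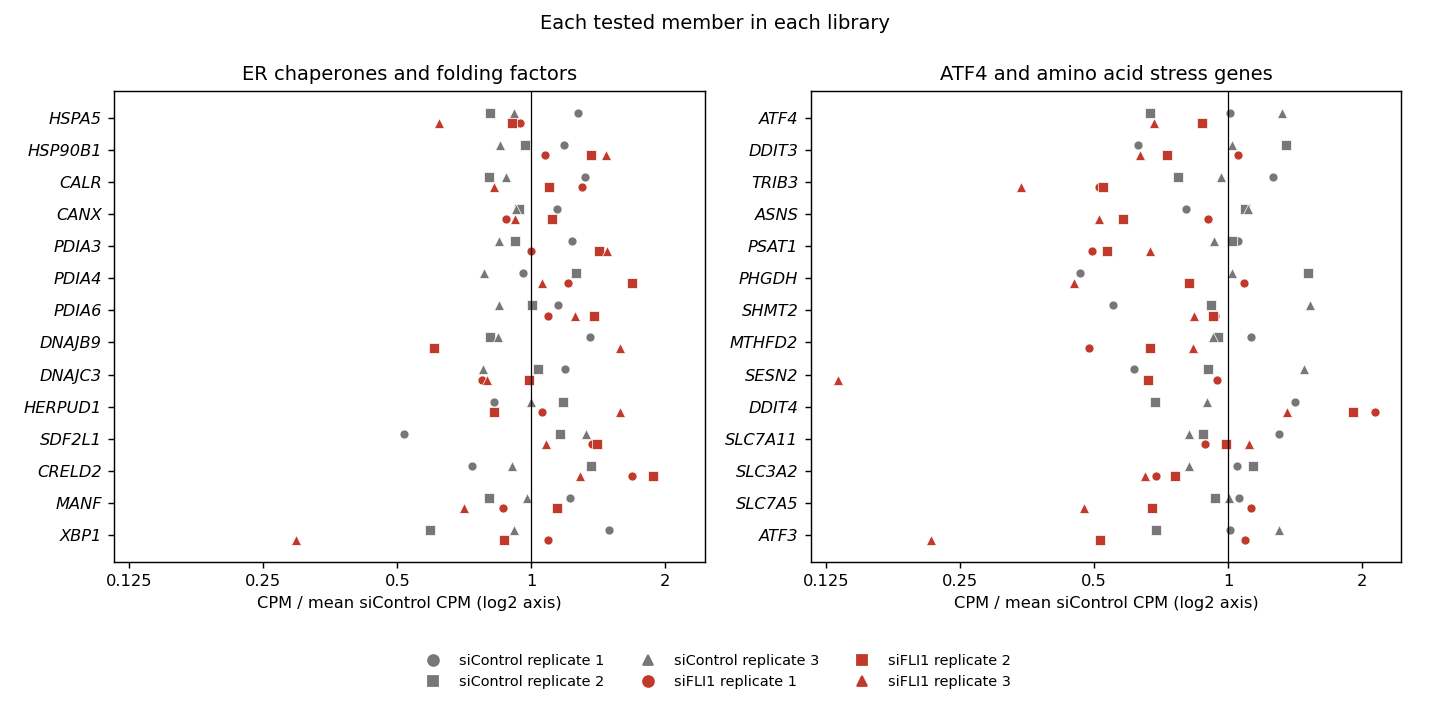
Level of each of the 28 tested members in each library, as TMM-scaled CPM divided by the gene's siControl mean on a log2 axis. Grey marks siControl and red marks siFLI1. In the right panel most red points lie left of 1, the farthest being siFLI1 replicate 3 for SESN2 (2.68 against a siControl mean of 20.2 CPM) and ATF3 (8.03 against 37.4 CPM). In the left panel both colours lie on both sides of 1.

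In each library, the median log2 ratio of the 14 tested ATF4 genes to their siControl means was −0.12, −0.51 and −0.63 in siFLI1 replicates 1, 2 and 3 and 0.04, −0.11 and 0.02 in siControl replicates 1, 2 and 3 (with 1 CPM added to each value). siFLI1 replicate 1 thus lay close to siControl replicate 2, and the other siFLI1 libraries lay lower. The summed level of the same genes was 1989, 1664 and 1253 CPM in siFLI1 and 1619, 2462 and 2151 CPM in siControl. By this sum, in which PHGDH weighs most, siFLI1 replicates 1 and 2 lay above siControl replicate 1. For the ER members the same median was 0.09, 0.17 and 0.09 in siFLI1 and 0.24, −0.07 and −0.17 in siControl. By this median siControl replicate 1 lay above all siFLI1 libraries. Their summed level, in which HSP90B1 weighs most, was 9130, 10470 and 9074 CPM in siFLI1 and 8965, 7873 and 7172 CPM in siControl. By the sum all siFLI1 libraries lay above all siControl libraries, though siControl replicate 1 lay close to the lowest of them. Behind these values stood 468 counts for the ATF4 genes in siFLI1 replicate 3 and 2505 to 4204 in the other libraries.

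Of the transcription factors of the ATF4 arm and their inhibitor, all 4 had negative log2 fold changes. ATF4 (chromosome 22, 39520559 to 39522686, plus strand) was at 159, 158 and 123 CPM in siFLI1 and 183, 121 and 239 CPM in siControl, where the groups overlapped. Its log2 fold change was −0.29 ± 0.28 (SE; edgeR adjusted p = 0.805). DDIT3, the proapoptotic factor CHOP, was at 134, 92.3 and 80.3 CPM in siFLI1 and at 79.7, 171 and 130 CPM in siControl, with −0.29 ± 0.32. Its row overlaps the aminoacyl-tRNA synthetase gene MARS on the other strand, which had 331 counts in siFLI1 and 461 in siControl, so reads could be shared. ATF3, a stress-induced factor downstream of ATF4, was at 40.8, 19.3 and 8.03 CPM in siFLI1 and at 37.7, 25.8 and 48.7 CPM in siControl, with −0.57 ± 0.47. Its siFLI1 levels spread widely, and the lowest came from 3 counts. The value for ATF3 was −1.28 without siFLI1 replicate 1 and −0.295 without siFLI1 replicate 3. That for ATF4 was −0.51 without siControl replicate 2 and −0.038 without siControl replicate 3. For DDIT3 it was −0.56 without siControl replicate 1 and −0.0086 without siControl replicate 2, so the size of all 3 rested on single libraries.

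TRIB3, a pseudokinase induced by ATF4 and CHOP that feeds back on both (chromosome 20, 380629 to 397559, plus strand), had the lowest log2 fold change of the members. In siFLI1 the replicates 1, 2 and 3 held 24.0, 24.6 and 16.1 CPM (43, 37 and 6 counts). In siControl they held 59.2, 36.3 and 45.3 CPM (110, 62 and 53 counts). All siFLI1 libraries lay below all siControl libraries, as they did in 4 of the 28 tested members and in 7.71% of all tested genes. The other 24 members overlapped between groups, and 16.6% of all tested genes did not. The means of 21.6 ± 4.77 and 47.0 ± 11.6 CPM (SD, n = 3) gave a log2 fold change of −1.06 ± 0.36 (SE; 95% interval −1.84 to −0.29), which did not pass over all genes (edgeR adjusted p = 0.248, and 0.184 to 0.476 over the alternatives). Permuting the 6 values exactly gave a two-sided p of 0.1, which is as low as a design of 3 and 3 libraries reaches.

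All 4 serine and folate enzymes had negative log2 fold changes, PSAT1 and MTHFD2 without overlap. PSAT1, the aminotransferase of the second step of serine synthesis (chromosome 9, 78297075 to 78330093, plus strand), was at 49.8, 53.8 and 66.9 CPM in siFLI1 and at 106, 103 and 93.2 CPM in siControl. The siControl libraries lay close together, and the means were 56.8 ± 8.98 and 100.4 ± 6.45 CPM (SD, n = 3). This gave a log2 fold change of −0.85 ± 0.27 (SE; 95% interval −1.43 to −0.27), with an adjusted p of 0.199 in edgeR and 0.114 to 0.529 over the alternatives, in which the value stayed between −0.98 and −0.76. MTHFD2, a mitochondrial folate dehydrogenase (chromosome 2, 74198563 to 74215297, plus strand), was at 79.95, 109.6 and 137 CPM in siFLI1 and 184, 156 and 151 CPM in siControl. Its groups did not overlap, and the log2 fold change was −0.62 ± 0.27 (adjusted p = 0.425).

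PHGDH, which catalyses the first and committed step of serine synthesis, varied more within groups than between them. It was at 948, 714 and 394 CPM in siFLI1 and at 408, 1322 and 895 CPM in siControl, and the siFLI1 range overlapped the siControl range except for its lowest library, while siControl replicate 2 lay above all siFLI1 libraries. The coefficient of variation was 40.6% in siFLI1 and 52.3% in siControl, against 15.8% and 6.43% for PSAT1. The difference of −0.34 ± 0.41 in log2 (SE; edgeR adjusted p = 0.845) turned to 0.082 without siControl replicate 2. SHMT2, which passes the carbon of serine to folate in mitochondria, was at 53.7, 53.2 and 48.2 CPM in siFLI1 and at 31.8, 52.7 and 88.0 CPM in siControl. The siFLI1 libraries lay within the siControl range, and the value of −0.13 ± 0.36 turned to 0.046 in limma-voom and to 0.30 without siControl replicate 3. ASNS, the asparagine synthetase, was at 98.96, 63.8 and 56.2 CPM in siFLI1 and at 88.3, 120 and 121 CPM in siControl, where only siFLI1 replicate 1 and siControl replicate 1 overlapped. Its log2 fold change was −0.55 ± 0.29 (adjusted p = 0.548).

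Of the 3 amino acid transporter members, SLC3A2 alone showed no overlap. SLC3A2, the heavy chain that brings partner transporters to the cell surface (chromosome 11, 62856012 to 62888883, plus strand), was at 79.4, 87.7 and 74.97 CPM in siFLI1 and at 121, 131 and 94.0 CPM in siControl. This gave a log2 fold change of −0.51 ± 0.26 (SE; 95% interval −1.07 to 0.06, edgeR adjusted p = 0.532). Its partner SLC7A5, which imports large neutral amino acids, was at 69.9, 41.9 and 29.5 CPM in siFLI1 and 65.7, 58.0 and 62.4 CPM in siControl, with −0.33 ± 0.33. The siFLI1 libraries of SLC7A5 spread over both sides of the narrow siControl range, and its value was −0.75 without siFLI1 replicate 1 and −0.14 without siFLI1 replicate 3. SLC7A11, the cystine importer and the other partner, had a siFLI1 mean of 125 ± 14.3 CPM and a siControl mean of 125 ± 33.2 CPM (SD, n = 3), with −0.02 ± 0.27, an interval of −0.60 to 0.57 and 0.19 without siControl replicate 1.

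The stress effectors held the 1 positive value of the arm. DDIT4, an inhibitor of mTORC1 also known as REDD1 that hypoxia and glucocorticoids can induce as well (chromosome 10, 72273919 to 72276039, plus strand), was at 122, 109 and 77.7 CPM in siFLI1 and at 80.8, 39.2 and 51.3 CPM in siControl. Its groups overlapped only through siFLI1 replicate 3 and siControl replicate 1. The means of 103 ± 22.8 and 57.1 ± 21.4 CPM (SD, n = 3) gave 0.87 ± 0.32 as the log2 fold change (SE; 95% interval 0.18 to 1.55, edgeR adjusted p = 0.298). Without these libraries, a fit chosen after the data were seen that left 2 libraries a group, DDIT4 passed with 1.35 (edgeR adjusted p = 0.0291), where 2.02% of the 9577 genes tested in that fit passed. It was the only member to do so in any fit run. SESN2, a leucine sensor that also restrains mTORC1, was at 19.01, 13.3 and 2.68 CPM in siFLI1 and at 12.4, 18.2 and 29.9 CPM in siControl, with −0.59 ± 0.56, and its lowest level came from 1 count. Its value was −1.06 without siFLI1 replicate 1 and −0.23 without siControl replicate 3. CHAC1, which breaks down glutathione, had 10, 2 and 0 counts in siFLI1 and 3, 2 and 0 in siControl, and the ratio of pooled levels was 3.1 (95% counting interval 1.02 to 11.2). Most of these counts were in siFLI1 replicate 1. VLDLR, a lipoprotein receptor induced by ATF4, had 14 and 25 counts in all, a ratio of 0.72 (0.35 to 1.45). These intervals cover counting error only.

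**Figure D3:**
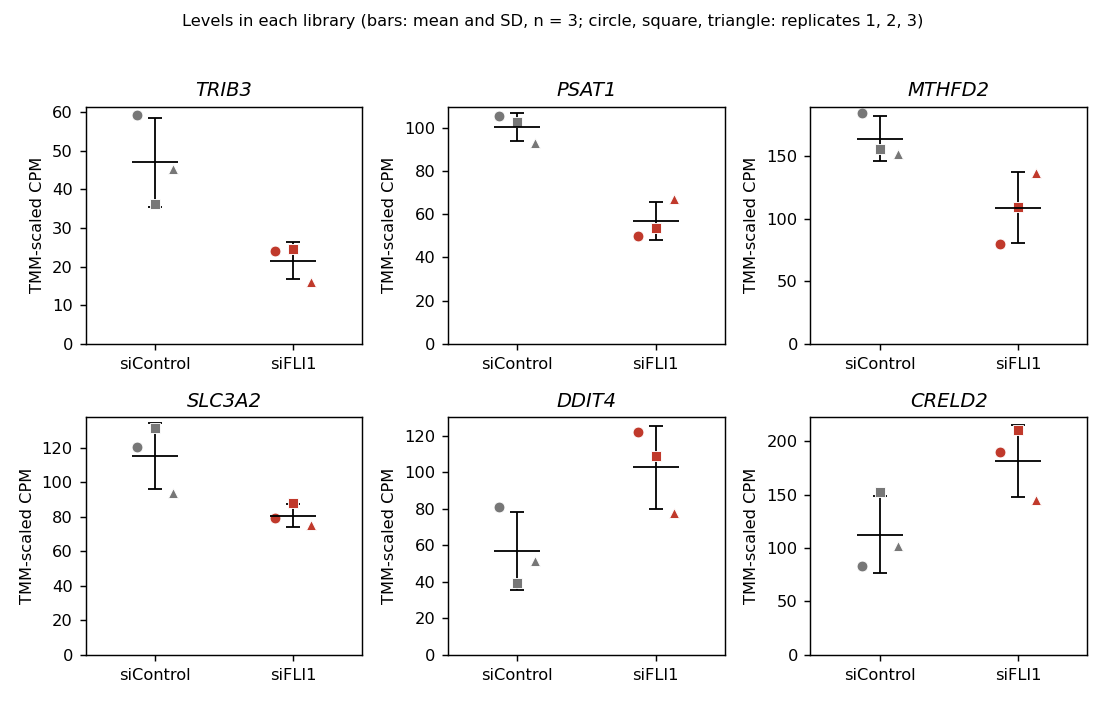
TMM-scaled CPM of 6 members in each library, with siControl in grey, siFLI1 in red, and bars for the mean and SD of 3 libraries. TRIB3, PSAT1, MTHFD2 and SLC3A2 show no overlap between groups, with means of 21.6 and 47.0 CPM for TRIB3 in siFLI1 and siControl. DDIT4 and CRELD2 have higher siFLI1 means but overlap.

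ATF4 acts at a composite element, searched here as TGATGNAA on both strands of the same windows. It was in 4 of 14 ATF4 members, in 1 of 13 ER members and in 4.46% of all genes with a window. These matches are printed as the ATF4 counterpart of the ERSE, with the element in capitals and each read on the strand of the match.
CHAC1 (chr15:40953257-40953274, minus strand): aggagTGATGCAAcggca
ASNS (chr7:97872464-97872481, minus strand): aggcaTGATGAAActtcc
SLC3A2 (chr11:62881731-62881748, minus strand): ggagcTGATGTAAggagt
ATF3 (chr1:212565211-212565228, plus strand): caggaTGATGGAAggctg
HERPUD1 (chr16:56931961-56931978, minus strand): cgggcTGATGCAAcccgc
The ASNS match is the known amino acid response element of that gene. The ATF3 and SLC3A2 matches lay far from the starts of the counted rows, at 212615018 and 62856012. For ATF3, SLC3A2 and ASNS, the window at the start of the counted row had no match. TRIB3, PSAT1 and MTHFD2 had no match in their windows. Of 207 tested genes with this element, 2 were higher and 0 lower in siFLI1 (edgeR), where 1.34% of all tested genes were higher and 0.117% lower. The median log2 fold change of the 207 genes was −0.05.

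Other genes of these pathways were followed in further lists, in each of which 0 were called in edgeR. These lists were taken from general knowledge, but with earlier results of these data known. Of 26 tested further genes of ER folding and degradation, 17 had a positive log2 fold change, with a median of 0.27, and 4 lay above siControl in all siFLI1 libraries where 8.93% of all tested genes did. ERO1A, the oxidase that recharges disulfide isomerases, was at 283, 353 and 308 CPM in siFLI1 and at 124, 258 and 219 CPM in siControl, with 0.65 ± 0.29 (SE; edgeR adjusted p = 0.431). ERLEC1, a lectin of ER-associated degradation, was at 0.57 ± 0.28 and SELENOS, a selenoprotein of the same pathway, at −0.54 ± 0.30. At an unadjusted p below 0.05, 1 was higher and 0 lower.

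Among 12 tested sensors and eIF2 regulators the median log2 fold change was −0.17, and at an unadjusted p below 0.05 there were 2 higher and 1 lower. EIF2AK2, the RNA-activated eIF2 kinase PKR that interferon also induces, was at 29.1, 26.6 and 40.2 CPM in siFLI1 and at 80.8, 72.6 and 60.7 CPM in siControl. Its groups did not overlap, with −1.22 ± 0.32 (SE; edgeR adjusted p = 0.084). EIF2AK2 passed in 2 of 16 alternatives, edgeR with no low-count filter (0.0353) and limma-voom with library weights (0.0409). Its adjusted p reached 0.374 over the alternatives. With no low-count filter 368 of 18819 tested genes passed. MBTPS1, the protease that releases ATF6 and the sterol factors SREBP, was at 92.3, 82.4 and 56.2 CPM in siFLI1 and at 42.5, 31.0 and 39.3 CPM in siControl, with 1.06 ± 0.31 (adjusted p = 0.135). EIF2AK4, the amino acid sensor GCN2, was at 1.11 ± 0.40 (adjusted p = 0.285), also without overlap. ERN1, the gene of IRE1, had 0 counts in every library. Libraries covered 3' ends and counts used 1 RefSeq transcript a gene, so 0 counts do not show that the RNA was absent.

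Of 18 tested further ATF4 targets, 7 had a positive and 11 a negative log2 fold change, and the median was −0.18. EIF4EBP1, the translation inhibitor 4E-BP1, was at 52.0, 49.2 and 34.8 CPM in siFLI1 and at 111, 87.8 and 107 CPM in siControl, with −1.12 ± 0.28 (SE; edgeR adjusted p = 0.0744). It lay lower in all siFLI1 libraries. In 2 of 16 alternatives it passed, DESeq2 (0.0469) and edgeR with no low-count filter (0.0325), and its adjusted p reached 0.27 over the alternatives. DESeq2 called 2.3% of all tested genes, and the fit with no low-count filter called 368 of 18819. NUPR1, a stress-induced chromatin protein, was at 10.1, 16.6 and 10.7 CPM in siFLI1 and at 0, 1.76 and 4.27 CPM in siControl, with 2.75 ± 0.85 (adjusted p = 0.17). These levels came from only 18, 25 and 4 counts in siFLI1 and 0, 3 and 5 in siControl. DESeq2 gave NUPR1 no adjusted p. SLC38A2, a carrier of small neutral amino acids, was at 0.56 ± 0.25 (adjusted p = 0.44). The count at an unadjusted p below 0.05 was 2 higher and 1 lower.

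Of 13 tested further serine and one-carbon genes, 10 lay below 0, and their median log2 fold change was −0.29. PSPH, the phosphatase of the last step of serine synthesis, was at 73.2, 77.7 and 83.0 CPM in siFLI1 and at 107, 145 and 84.6 CPM in siControl, with −0.54 ± 0.28 (SE; edgeR adjusted p = 0.539). Its groups did not overlap, by a small margin at siControl replicate 3. MTHFD1L, the mitochondrial formate-forming enzyme, was at −0.66 ± 0.35. In this list 0 had an unadjusted p below 0.05. Of 20 tested cytosolic aminoacyl-tRNA synthetases, 13 had a negative value, with a median of −0.09. At an unadjusted p below 0.05, 1 was lower, YARS at −0.62 ± 0.28 (adjusted p = 0.441). FARSA was at −0.996 ± 0.51 and TARS at −0.42 ± 0.25.

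**Figure D4:**
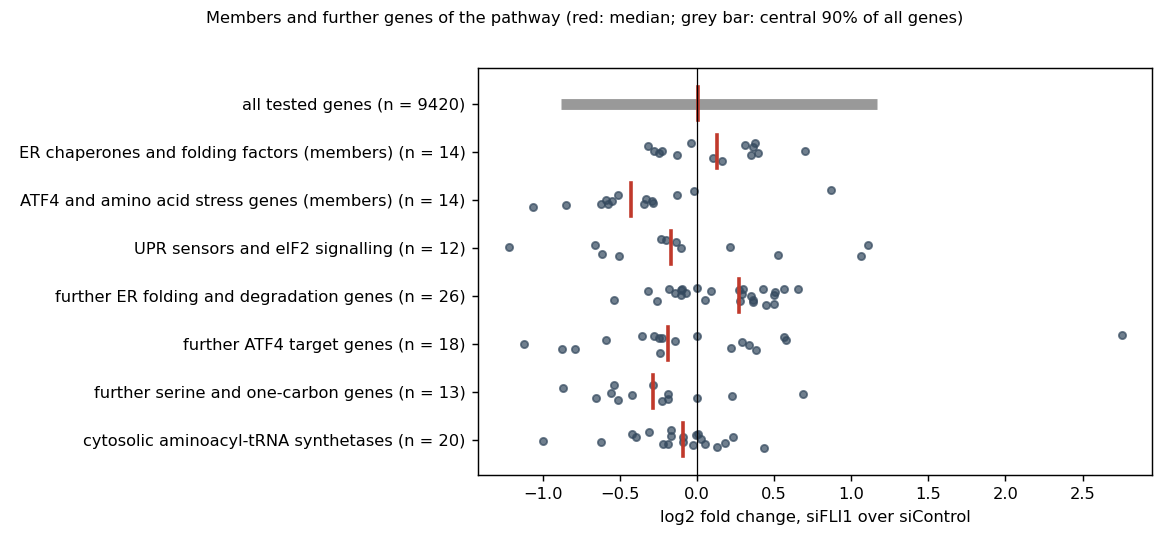
Log2 fold change of siFLI1 over siControl for the tested members and for the tested genes of 5 further lists, 1 point a gene, with the median in red and the central 90% of all tested genes as a grey bar, from −0.88 to 1.16. Medians are 0.13 for the ER members, −0.43 for the ATF4 members and 0.27 for the further ER folding genes. The point at 2.75 is NUPR1, which had at most 25 counts in a library.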

How the data were processed

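Values are raw counts per gene over exons, deposited in 1 table with 1 RefSeq transcript a gene. Per the labels' protocols, libraries covered 3' ends with molecular barcodes; the sources used here do not give whether these were collapsed or strand was used. Per the submitters' processing notes, which give no role or order, HISAT 0.1.5, HOMER, bcl2fastq and hg38 are listed. Separate cultures are not stated for the replicates, so p-values measure the spread between libraries, which may be technical. Within groups, each pair of libraries differed by more than sampling noise (lowest ratio of chi-square to its degrees of freedom, 5.19).

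Genes were kept by filterByExpr (minimum count 10, minimum total 15; 9420 genes), scaled by TMM and tested with edgeR 4.0.16 under R 4.3.3 (robust glmQLFit, glmQLFTest, two-sided, group as the 1 term), with Benjamini-Hochberg adjustment over all tested genes. CPM use the scaled sums of tested genes. Intervals of 95% follow from the F statistic. Starts are 1-based, checked against GENCODE.

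The members and lists were chosen with earlier results of these data known. Named outside the members are FLI1 and up to 3 genes a further list with the smallest adjusted p, of which 1 is not reported here; SERP1 and FICD were added after their values were seen. Alternatives were 3 other scalings, 2 other filters (none; 5 CPM in 3 libraries), DESeq2 1.42.0, limma-voom (limma 3.58.1), the replicate number as a block and leaving out each library. Library weights and leaving out siFLI1 replicate 3 with siControl replicate 1 were chosen after seeing the data.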

Additional observations from a re-analysis of the deposited data

How the results depend on the processing

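Over 16 alternatives, 417 of 448 member values kept their direction and their side of the threshold, 1 newly passed (DDIT4, when siFLI1 replicate 3 and siControl replicate 1 were left out together, which gave 1 called ATF4 member among 193 called genes, 2.02% of those tested) and 30 changed sign, in 10 members, none of them called. The cause was not tested. ER members called stayed at 0 throughout. Genes called over the table numbered 368 with no low-count filter, 217 in DESeq2 and 65 to 126 in the fits without 1 library, against 137. Replicate numbers did not pair the libraries (correlations of deviations −0.023, −0.013 and −0.043; 0 of 6 libraries correlated best with their own number). With the replicate block 101 genes were called, 0 of them members, SHMT2 turned to 0.0075 and SLC7A11 to 0.0098.

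Log2 fold changes that turned were, under total counts, CALR at −0.062, and in limma-voom SHMT2 at 0.046. With library weights CANX was at 0.041, HERPUD1 at −0.039, MANF at 0.0073 and SLC7A11 at 0.097. Without siFLI1 replicate 3 and siControl replicate 1, HSPA5 was at 0.092, CANX at 0.088, HERPUD1 at −0.22, MANF at 0.17, XBP1 at 0.39 and SLC7A11 at 0.14. Over fits without 1 library, CALR ran from −0.058 to 0.32, CANX from −0.16 to 0.031, DNAJB9 from −0.73 to 0.0056, HERPUD1 from −0.083 to 0.36, MANF from −0.34 to 0.011, XBP1 from −0.65 to 0.071, PHGDH from −0.71 to 0.082, SHMT2 from −0.46 to 0.30 and SLC7A11 from −0.14 to 0.19.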
